A study of Mus musculus with 12 samples.

Results

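Receptor and surface genes of blood vessel endothelium were followed in mouse skin. Of 10 candidate genes, the 6 present by symbol in the deposited count tables were analysed out of 7902 genes in all: Kdr, Tek, Tie1, Emcn, Robo4 and Tmem204. Flt1, Eng, Esam and Nos3 were not analysed here. Bulk RNA sequencing covered 12 skin libraries in 3 groups of 4. The groups were control skin (Ctrl), skin of an ageing model induced by D-galactose with ultraviolet A and B light (Model), and skin of the same model given the grape seed extract NSPCC1 (M+NSPCC1). D-galactose overload is used to mimic ageing through oxidative stress, and both Model and M+NSPCC1 skin had that sugar and the light. The study set out to describe what the extract does in aged skin. The labels give no strain, age, sex, body site, dose or treatment time, and do not say whether each library had its own animal. The p-values thus set group differences against the spread between these libraries. That spread may not be between animals, and some of it may be technical.

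Endothelial cells line every blood vessel, and receptors on their surface let vessels grow, stay closed and respond to tissue demand. Kdr is the main signalling receptor for vascular endothelial growth factor (VEGF), which drives sprouting and permeability. Tek (Tie2) binds angiopoietins and keeps vessels quiescent, with Tie1 as its partner that has no well-established ligand of its own. Emcn is a sialomucin of capillary and venous endothelium, Robo4 is a guidance receptor that stabilises the vessel barrier, and Tmem204 is a claudin-like membrane protein of endothelium. In skin, the dermal vessels also feed the hair follicles and the thin muscle layer under the dermis.

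The tables gave part of the transcriptome (7869 of 21900 annotated protein-coding genes). Summed over genes, a library held 9717338 to 10952623 estimated counts, which is not the sequencing depth of the whole library. Most tested genes differed from Ctrl, how the listed rows were chosen is not stated, and all counts of called genes are read against that background. Counts scaled to library size with TMM factors (CPM) are used below unless FPKM, a level per transcript length, is named. Over the 7638 genes tested, the median log2 fold change in Model against Ctrl was 0.25 with TMM, 0.08 with DESeq2's size factors and 0.43 with whole-library depth, and the members' changes stand against those medians. In bulk skin, fewer endothelial cells, less RNA per endothelial cell and more RNA from other cells cannot be told apart. On average, the summed CPM of 20 hair shaft genes was 112.8 in Ctrl, 67730 in Model and 52290 in M+NSPCC1. That of 22 skeletal muscle genes was 102400, 11460 and 16660. The hair shaft mean in Ctrl came mostly from Ctrl 02, at 370.8 CPM, with 16.63 to 38.03 CPM in the other Ctrl libraries.

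Promoter sequence from RefSeq (GRCm38.p6, the assembly of mm10) was matched for 5 of the 6 genes by symbol. The windows scanned are the 250 bases before the 1 start site that RefSeq's promoter table uses for each gene, and other annotated transcripts begin elsewhere. The RefSeq gene itself reaches over all 250 bases of the Kdr window, 203 of Tek, 70 of Robo4 and 16 of Emcn. GENCODE M21 exons of the same gene cover 212 bases of the Tie1 window, 75 of Robo4, 11 of Emcn, 3 of Kdr and 0 of Tek, so the Tie1 and Robo4 windows are in part transcribed sequence. Letters recognised by ETS family factors, a group that includes the endothelial regulators Erg and Fli1, are shown for the VEGF receptor, the angiopoietin receptor and the capillary sialomucin, 3 genes of different families. Capitals mark the hexamer, CAGGAA or CCGGAA on either strand (TTCCTG or TTCCGG as shown), within 30 bases that run 5′ to 3′ on the gene's strand. None of these 4 stretches lies in a GENCODE exon of its gene, though those of Kdr and Tek lie inside the RefSeq gene. The Kdr stretch is on the minus strand at chr5:75978591-75978620, that of Tek on the plus strand at chr4:94739218-94739247, and those of Emcn on the plus strand at chr3:137340893-137340922 and chr3:137340999-137341028.
Kdr: cgcccggcacagTTCCGGggtagtggggga
Tek: atacccctattgTTCCTGaaaatgctgacc
Emcn, farther: aagaagggtctcTTCCTGttcaaatcccat
Emcn, nearer: aaaaaaaagaagTTCCTGtaaggggctgaa
The hexamers end 147 (Kdr), 53 (Tek), 167 and 61 (Emcn) bases before the start site used. The Kdr window holds 1 CCGGAA and 2 GC boxes (GGGCGG), and the Tek and Emcn windows hold 2 CAGGAA each. The Tie1 and Robo4 windows hold 1 CAGGAA each, which overlaps a GENCODE exon in both. No CAGGAA match overlapped a CCGGAA match. Among 27025 windows of this length, 25.4% hold CAGGAA, 12.2% hold CCGGAA and 32.9% hold GGGCGG on either strand. No member window holds TATAAA (13.0% of all windows do), and AGATAA, the GATA letters, is in none of them (10.3% of all). GC content was 61.6% for Kdr and 60.4% for Tie1, 51.2% for Tek, 49.6% for Robo4 and 40.8% for Emcn, against a median of 52.0% over all windows. A match is a description of the letters only.

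All 6 receptor genes fell in Model skin compared with Ctrl, by 49.7% (Tmem204) to 76.2% (Tek) from the fitted fold changes, and none of the 6 passed the test between M+NSPCC1 and Model. Every Model and M+NSPCC1 library lay below every Ctrl library for each gene. As background, 41.4% of tested genes were called lower in Model, and 39.8% had Model libraries that all lay below Ctrl. Changes were called by edgeR's quasi-likelihood test where the Benjamini-Hochberg adjusted p was under 0.05.

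Kdr (gene 16542, chromosome 5, 75932827 to 75979072, minus strand in the promoter table) had 112 CPM, 141, 132.5 and 126 in Ctrl libraries 01 to 04. Its Model libraries had 37.3, 32.4, 60.7 and 39.3 CPM, and its M+NSPCC1 libraries 35.9, 51.7, 43.98 and 37.99 CPM. The lowest Ctrl value was above the highest value of the other groups, that of Model 03. Kdr fell by 1.59 on the log2 scale in Model (SE 0.19; 95% interval -2.0 to -1.18; edgeR adjusted p = 1.13e-05, Benjamini-Hochberg), from 128 ± 12.3 to 42.4 ± 12.5 CPM (SD, n = 4 each).

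Tek (gene 21687, chromosome 4, 94739086 to 94874976) had 92.1, 128, 140.4 and 111 CPM in the Ctrl libraries. It had 24.5, 13.9, 52.6 and 21.6 CPM in Model and 21.1, 34.1, 29.0 and 28.4 CPM in M+NSPCC1 libraries. The Model values spread 3.78-fold from lowest to highest, the widest of the 6 genes in any group, and still did not reach Ctrl. Tek had the largest fall in Model among the 6, -2.07 (SE 0.34; 95% interval -2.81 to -1.33; edgeR adjusted p = 0.000145, Benjamini-Hochberg). The table lists Tek in 2 rows, without naming the transcripts. The first row had 15.4, 9.91, 16.9 and 7.5 CPM in Model, and the second 9.23, 4.11, 36.1 and 14.3 CPM, so the high Tek value of Model 03 came mostly from the second row. Fitted row by row, the log2 fold changes against Ctrl were -2.21 and -1.89 (edgeR adjusted p = 8.97e-06 and 0.00755). How the estimates divided reads between the rows is uncertain, so the summed value is the one used elsewhere.

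Tie1 (gene 21846, chromosome 4, 118471191 to 118489849), the partner of Tek, had the tightest values of the 6 in Ctrl and in M+NSPCC1. Ctrl libraries had 119, 132, 123 and 117.5 CPM, Model libraries 38.9, 18.6, 54.2 and 28.0, and M+NSPCC1 libraries 32.4, 32.0, 32.5 and 30.4. The coefficient of variation (SD over mean) was 5.30% in Ctrl, 43.8% in Model and 3.16% in M+NSPCC1. Tie1 fell by 1.82 on the log2 scale in Model (SE 0.25; edgeR adjusted p = 3.43e-05, Benjamini-Hochberg).

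Emcn (gene 59308, chromosome 3, 137341062 to 137431069) had 54.8, 51.4, 48.8 and 44.1 CPM in Ctrl, 18.7, 9.91, 29.9 and 11.3 in Model and 15.8, 18.7, 17.0 and 16.0 in M+NSPCC1 libraries. Model 02 and Model 04 were the low libraries and Model 03 the high one, below all of Ctrl. Emcn fell by 1.51 in Model (SE 0.29; edgeR adjusted p = 0.000401, Benjamini-Hochberg). Its coefficient of variation was 9.05% in Ctrl, 52.4% in Model and 8.01% in M+NSPCC1.

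Robo4 (gene 74144, chromosome 9, 37401902 to 37414023) was the least abundant, with 9.62, 16.8, 8.59 and 9.39 CPM in Ctrl. Model libraries had 4.36, 2.87, 5.95 and 4.57 CPM and M+NSPCC1 libraries 3.67, 3.62, 4.55 and 2.49 CPM, all below Ctrl. Ctrl 02 stands apart as the high Ctrl library. Robo4 fell by 1.32 in Model (SE 0.31; edgeR adjusted p = 0.00169, Benjamini-Hochberg), and without Ctrl 02 the fitted value was -1.05 in Model and -1.36 in M+NSPCC1 against Ctrl. It had only 27.7 to 152 counts per library. Its SE in Model was larger than that of the other genes apart from Tek (0.34).

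Tmem204 (gene 407831, chromosome 17, 25057702 to 25081114) fell least. It had 39.5, 43.4, 37.0 and 44.1 CPM in Ctrl, 21.4, 13.99, 30.4 and 16.9 in Model and 24.7, 25.5, 22.04 and 19.4 in M+NSPCC1 libraries. Model 03, again the highest Model library, stayed below the lowest Ctrl library, 37.0 CPM. Tmem204 fell by 0.99 in Model (SE 0.21; edgeR adjusted p = 0.000806, Benjamini-Hochberg).

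**Figure D1:**
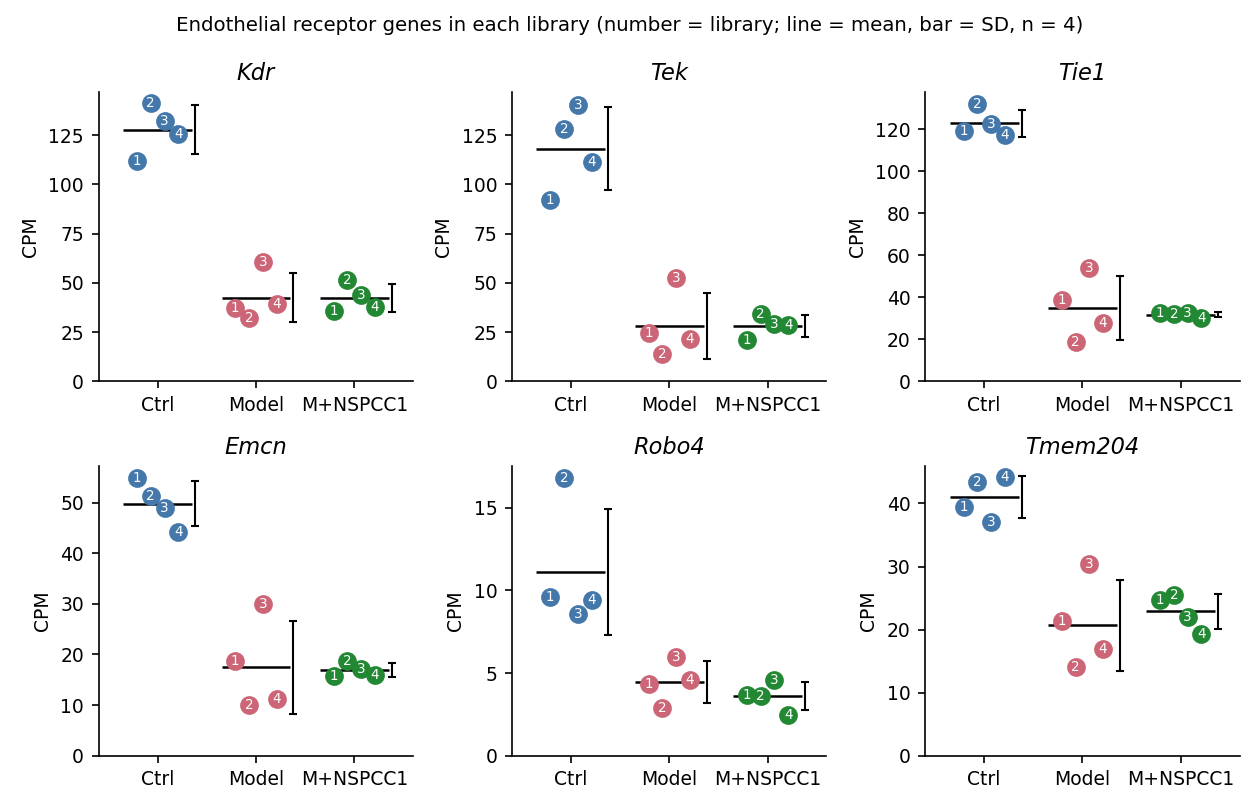
CPM of each receptor gene (vertical axis, from 0) in the 3 groups; each numbered point is a library, the line the mean and the bar the SD (n = 4). For all 6 genes the 4 Ctrl points lie above every Model and M+NSPCC1 point, and point 3 is the highest and point 2 the lowest of the Model points.

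With the extract, all 6 genes likewise stood below Ctrl, where 43.1% of tested genes were called lower and 42.5% had M+NSPCC1 libraries that all lay below Ctrl. Both comparisons use the same 4 Ctrl libraries, so their values are given side by side only. Against Ctrl the log2 fold changes in M+NSPCC1 and Model were -1.59 and -1.59 for Kdr, -2.07 and -2.07 for Tek, and -1.95 and -1.82 for Tie1. They were -1.56 and -1.51 for Emcn, -1.63 and -1.32 for Robo4, and -0.84 and -0.99 for Tmem204. The largest edgeR adjusted p in M+NSPCC1 against Ctrl was 0.00227, for Tmem204 (Benjamini-Hochberg). The median over the 6 was -1.55 in Model and -1.61 in M+NSPCC1, against 0.25 and 0.27 over all tested genes.

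The direct comparison of M+NSPCC1 with Model asked whether the extract moved these genes in aged skin. None of the 6 passed, in a comparison where edgeR called 0% of the 7638 genes. At an unadjusted p under 0.05 edgeR had 0 of the 6 genes and 502 of all genes. DESeq2 called 0 of the 6, and 59 genes lower and 14 higher of 7609. The log2 fold changes were -0.0006 for Kdr (95% interval -0.40 to 0.40), 0.00097 for Tek (-0.73 to 0.73) and -0.13 for Tie1 (-0.66 to 0.40). They were -0.05 for Emcn (-0.67 to 0.57), -0.31 for Robo4 (-0.98 to 0.37) and 0.15 for Tmem204 (-0.30 to 0.60). The groups overlapped for each gene, while 2.89% of all genes had M+NSPCC1 libraries all below Model and 1.3% all above. The intervals of all 6 genes exclude a 2-fold change in either direction, as did those of 77% of all tested genes. Only Kdr's excludes 1.5-fold, while those of 54.7% of all tested genes did. With 1 library left out at a time, 5 or 6 of the 6 still exclude 2-fold. Without Model 03 the differences were 0.22 for Kdr, 0.49 for Tek, 0.16 for Tie1, 0.34 for Emcn, -0.13 for Robo4 and 0.39 for Tmem204, and none passed.

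**Figure D2:**
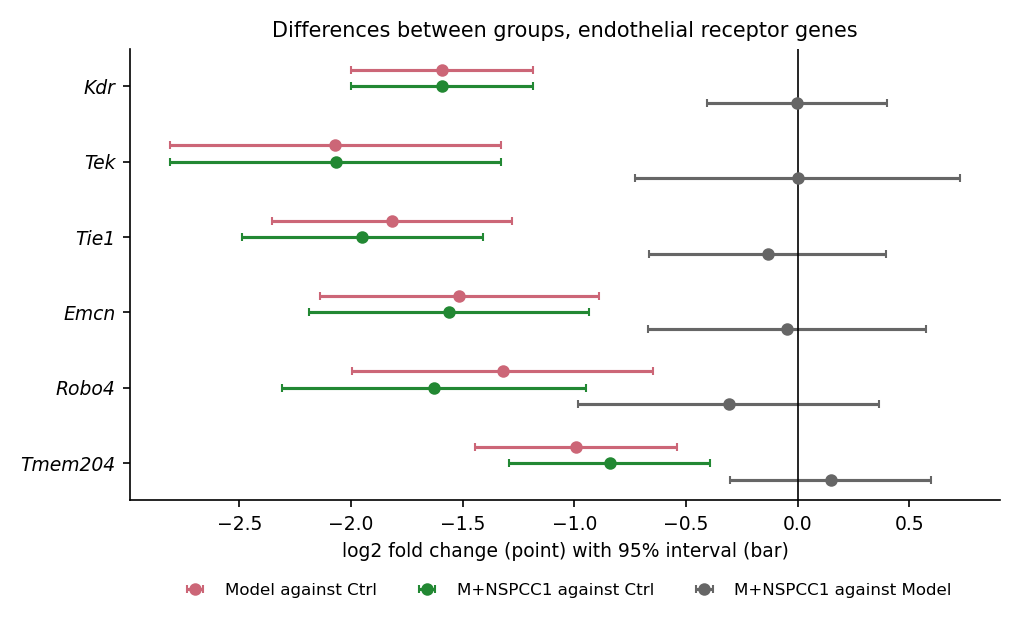
Log2 fold change (horizontal axis) of each receptor gene with its 95% interval, in Model against Ctrl (red), M+NSPCC1 against Ctrl (green) and M+NSPCC1 against Model (grey). The red and green intervals lie below 0 for all 6 genes, and the grey ones cross 0.

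Summed over the 6 genes, the CPM describes the vessel content of each library, relative to the other RNA counted in it. Ctrl libraries 01 to 04 held 427, 513, 490.0 and 452 CPM. Model libraries held 145, 91.7, 234 and 122 CPM, and M+NSPCC1 libraries 133.5, 166, 149 and 135 CPM. In percent of the Ctrl mean these are 30.9%, 19.5%, 49.6% and 25.8% for Model and 28.4%, 35.2%, 31.7% and 28.6% for M+NSPCC1. The means were 31.5% ± 13.0 in Model and 31.0% ± 3.21 in M+NSPCC1 (SD, n = 4 each), close together, with all 4 M+NSPCC1 libraries inside the Model range. Kdr, Tek and Tie1 make up most of the sum. The mean log2 CPM over the genes, which weights them equally, differed from the Ctrl mean by -1.54, -2.23, -0.90 and -1.80 in Model 01 to 04, and by -1.68, -1.43, -1.51 and -1.75 in M+NSPCC1 01 to 04.

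**Figure D3:**
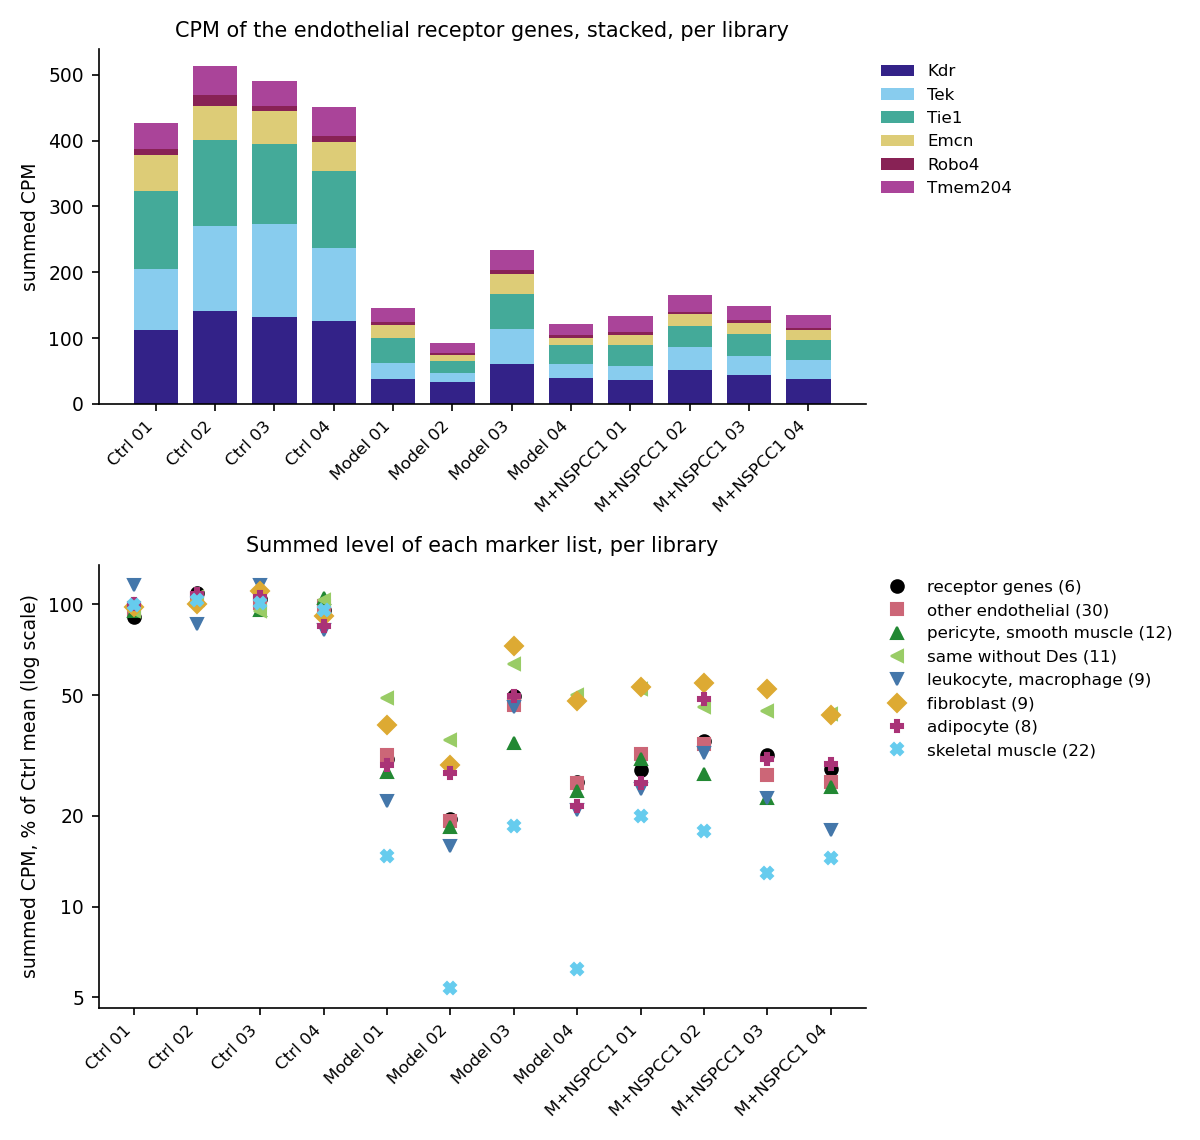
Upper panel: CPM of the 6 receptor genes stacked per library, from 0. Lower panel: summed CPM of each marker list in percent of its Ctrl mean (log axis), 1 symbol per list; the receptor genes lie at 19.5% to 49.6% in Model and 28.4% to 35.2% in M+NSPCC1, and other endothelial markers at 19.1% to 46.6% and 25.9% to 34.5%. The pericyte and smooth muscle list is drawn with and without Des.

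Model 03 was the highest and Model 02 the lowest Model library for all 6 genes. The same held for 25 (highest) and 22 (lowest) of 30 other endothelial markers, while 38.8% of all genes were highest in Model 03 and 31.0% lowest in Model 02. Without Model 03 the vessel content of Model was 25.4% of Ctrl, and the fall of each of the 6 genes was larger (Tek -2.56, Tie1 -2.11, Emcn -1.90, Kdr -1.81, Robo4 -1.49, Tmem204 -1.23 on the log2 scale). In M+NSPCC1 no library was the highest for all 6 genes. M+NSPCC1 02 was the highest for 4 (24.6% of all genes) and M+NSPCC1 03 for 2 (22.2% of all genes). The other endothelial markers differed there: M+NSPCC1 01 was the highest for 18 of the 30, M+NSPCC1 02 for 9 and M+NSPCC1 03 for 3. M+NSPCC1 01 was the highest for 0 of the 6 receptor genes and for 32.3% of all genes. Deviations from the group means correlated over the 12 libraries, which share their library, most for Tie1 with Emcn (Pearson's r 0.94), Kdr with Tek (0.93) and Tie1 with Tmem204 (0.91). They correlated least for Robo4 with Tek and with Emcn (0.54 each).

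Ratios between the genes within a library, which do not depend on scaling, were compared for all 15 pairs. The mean log2 ratio to Tmem204 differed between Model and Ctrl by -0.58 for Kdr, -1.18 for Tek, -0.88 for Tie1 and -0.60 for Emcn, with no overlap of the 4 against 4 libraries. Each of these 4 pairs reached 0.0286, the smallest p that an exact two-sided permutation test of 4 against 4 can give, and 0.107 after Benjamini-Hochberg adjustment over the 15, so none passed. In M+NSPCC1 against Ctrl 8 of the 15 pairs reached the smallest p, with an adjusted p of 0.0536. They include all 5 ratios to Tmem204, for Kdr -0.76, Tek -1.23, Tie1 -1.10, Emcn -0.71 and Robo4 -0.76 on the log2 scale. The differences were 0.47 for Kdr to Tek, 0.35 for Kdr to Tie1 and -0.39 for Tie1 to Emcn. In M+NSPCC1 against Model no pair went below p = 0.114 (exact permutation; adjusted p = 0.612).

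Per transcript length (FPKM), Emcn was the most abundant of the 6 in Ctrl, at 22.7 ± 2.02, followed by Tie1 at 18.0 ± 0.840 (SD, n = 4 each). Tmem204 (14.6), Tek (libraries between 10.97 and 16.5) and Kdr (11.9) followed with overlapping neighbours, and Robo4 was lowest at 1.56 ± 0.530. In Model the order was Emcn (8.92), Tmem204 (8.28), Tie1 (5.74), Kdr (4.44), Tek (3.75) and Robo4 (0.708), and each gene overlapped the next apart from Tek and Robo4. In M+NSPCC1 Tmem204 (9.45) and Emcn (8.93) overlapped at the top, above Tie1 (5.4), Kdr (4.57), Tek (3.88) and Robo4 (0.588). Tie1 overlapped Kdr and Kdr overlapped Tek there, while Emcn lay above Tie1 and Tek above Robo4 without overlap. Tek and Kdr overlapped in Ctrl and Model too.

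Other genes of the same cells were compared from a list of 50 endothelial markers, of which 30 were tested. In Model against Ctrl 27 fell, 1 rose and 2 did not pass, with a median of -1.81 (median of the 6 receptor genes -1.55; all tested genes 0.25). Cdh5, the junction cadherin of endothelium, fell from 206 ± 11.3 to 56.9 ± 23.9 CPM (SD, n = 4 each). Pecam1, an adhesion molecule of the junction, had a log2 fold change of -1.62, Vwf, the clotting factor stored in endothelium, -1.82, and Cldn5, a tight junction claudin, -1.79. Cd34, which is also a marker of follicle stem cells and fibroblasts, had -1.86, Podxl, a sialomucin, -1.98 and Klf2, a flow-induced transcription factor, -1.83. Plvap, which forms the diaphragms of fenestrated capillaries, had a value of -1.002, with 148 ± 47.5 CPM in Model. Genes of arterial (Gja4 -1.53, Gja5 -1.83) and venous endothelium (Ackr1 -1.98, Nr2f2 -2.60) were both lower. The ETS factor Fli1 fell by 1.91. In M+NSPCC1 against Ctrl 28 fell and 1 rose (median -1.87), and none of the 30 passed in M+NSPCC1 against Model by edgeR, with 0 at an unadjusted p under 0.05 and 0 by DESeq2.

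Erg, another ETS factor of endothelium, was the exception. In the listed rows it had no count in any Ctrl library. Model libraries had 2.75, 3.80, 0 and 0 CPM, and M+NSPCC1 libraries 1.28, 1.67, 3.19 and 1.33 CPM. Whether the listed rows hold all transcripts of a gene is not known, so these values cover the listed rows only. The Model mean was at least 20.01-fold higher and the M+NSPCC1 mean at least 22.8-fold higher than in Ctrl, where 3 counts over the group set the floor, though 2 Model libraries had no count either. Its estimated counts are not whole, and its call in Model was lost with only the 8 libraries compared, with the replicate block and with limma on FPKM. Hey1, a Notch target of arterial endothelium, had no count in 3 Model libraries or in any M+NSPCC1 library, and in M+NSPCC1 it was at least 30.3-fold lower than in Ctrl (3 counts over the group), where it had 2.07 CPM. Sox13 (0.29) and Mecom (-1.37, from 3.65 to 1.41 CPM) did not pass in Model. The summed CPM of the 30 markers was 31.7%, 19.1%, 46.6% and 25.7% of the Ctrl mean in Model 01 to 04 and 32.0%, 34.5%, 27.2% and 25.9% in M+NSPCC1.

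**Figure D4:**
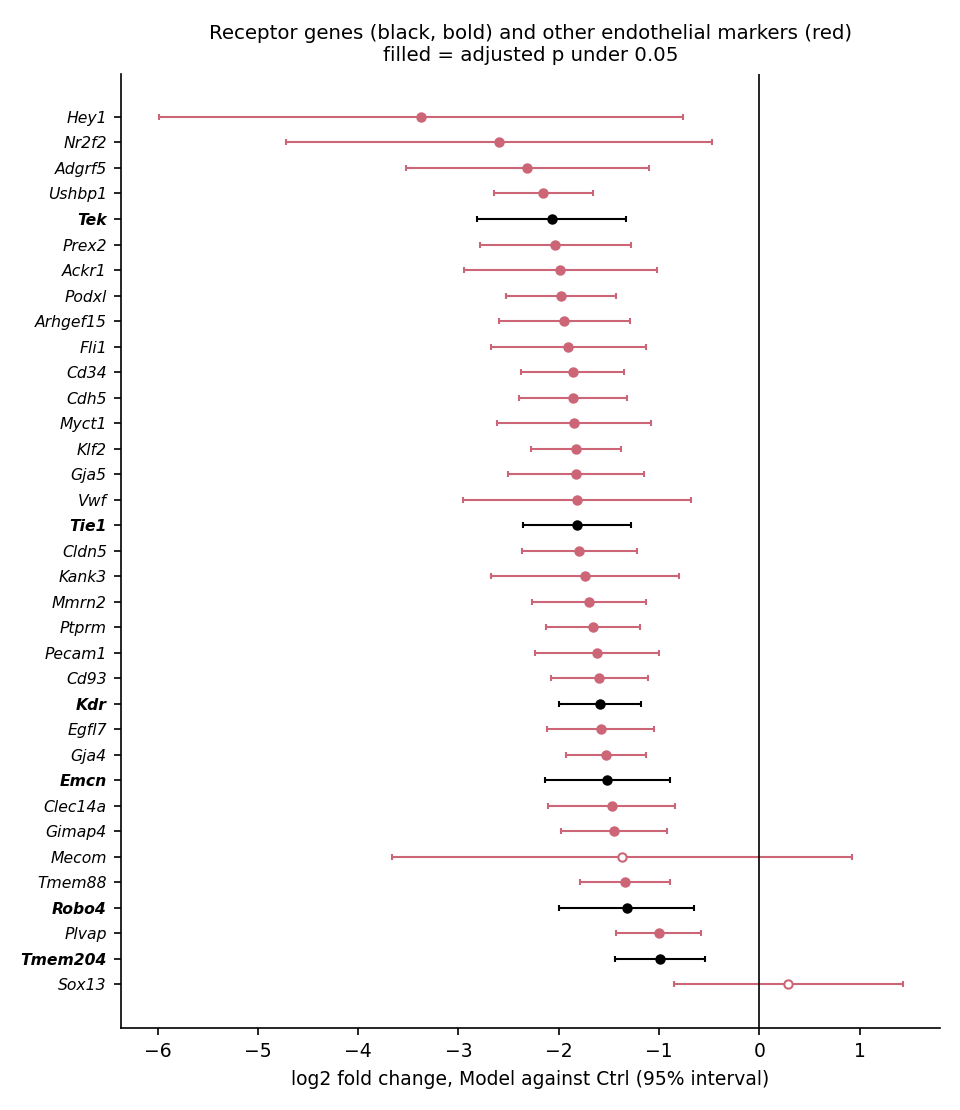
Log2 fold change (horizontal axis, with 95% intervals) in Model against Ctrl of the 6 receptor genes (black) and of 29 other endothelial markers (red), ordered by size; filled points passed. Erg, with no count in Ctrl, is not drawn. The receptor genes lie among the other markers, between -2.07 for Tek and -0.99 for Tmem204.

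Ligands, co-receptors and signalling partners of the 6 genes did not move as a block. Of 43 in the list 25 were tested, of which 13 fell and 12 rose in Model, with a median of -0.40. All 25 were thus called and none had overlapping groups. Of all tested genes, 49.1% were called higher and 90.5% in either direction, and 43.2% had Model libraries that all lay above Ctrl. The summed level of the list stood at 99.2% to 105% of the Ctrl mean in Model libraries. Of the VEGF family Vegfb fell from 102 ± 8.29 to 35.5 ± 9.15 CPM (SD, n = 4 each), and Vegfc, the lymphatic growth factor, and Pgf, placental growth factor, had log2 fold changes of -1.12 and -2.55. The co-receptor Nrp1, which binds VEGF with Kdr, fell by 1.52, while Nrp2, its relative, rose by 0.90. Ptprb, the phosphatase that restrains Tek and Cdh5 signalling, fell by 1.66 (edgeR adjusted p = 2.52e-05, Benjamini-Hochberg). Shb, an adaptor that binds Kdr, rose by 1.45 and Plcg1, a phospholipase downstream of Kdr, by 0.38.

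Partners that rose most were Unc5b, a Robo4 ligand, at 3.30 (from 33.9 ± 8.74 to 334 ± 88.9 CPM; SD, n = 4 each), and Robo1, a relative of Robo4, at 3.24. The Notch genes Notch1 and Jag1 rose by 1.95 and 1.86 and Efnb2 by 1.01, whereas the endothelial Notch ligand Dll4 fell by 1.73. Bulk values do not show in which cells of the skin these partners rose or fell, and this was not tested. The endothelial BMP receptor Acvrl1 (-1.59) and Tgfbr2 (-1.52) fell, and the BMP targets Smad6 and Id1 rose by 1.94 and 1.42. The caveolar protein Cav1 fell by 1.91, and the peptide receptors Aplnr and Calcrl, with its partner Ramp2, had log2 fold changes of -1.87, -1.48 and -1.33. In M+NSPCC1 against Ctrl the count was again 13 lower and 12 higher (all genes: 50.1% higher, 93.2% in either direction). Of the 12, Bmpr2 and Ednrb overlapped with Ctrl (all genes: 47.4% with M+NSPCC1 libraries all above Ctrl). None passed in M+NSPCC1 against Model, with 0 at an unadjusted p under 0.05.

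Markers of other cells moved with the receptor genes. In Model 11 of 12 tested pericyte and vascular smooth muscle genes fell (median -2.04), all 3 lymphatic, 9 leukocyte and macrophage, 9 fibroblast, 8 adipocyte and 22 skeletal muscle genes fell, and all 20 hair shaft genes rose (median 9.38). Summed per library, pericyte and smooth muscle genes were at 18.3% to 34.8% of the Ctrl mean in Model and 23.0% to 30.8% in M+NSPCC1 (Ctrl 95.02% to 105%). Des, which skeletal muscle also expresses, made up most of that sum, with 2987 CPM in Ctrl and 350.1 CPM in Model. Without Des, left out after its values were seen, 10 of 11 genes fell (median -2.01). The sum was then at 35.5% to 63.7% in Model and 43.2% to 52.4% in M+NSPCC1. Its means were 49.6% in place of 26.3% and 46.4% in place of 26.5%. Smtn, the gene that rose (169.0 to 301.8 CPM in Model), and Anpep (301.2 to 194.8 CPM) weigh heavily in that sum, which had a Model mean of 923.4 CPM. Leukocyte genes were at 15.9% to 45.8% and 17.9% to 32.3% (Ctrl 82.2% to 116%), fibroblast genes at 29.5% to 72.6% and 43.0% to 55.1% (Ctrl 91.4% to 111%), and skeletal muscle genes at 5.38% to 18.5% and 12.9% to 19.9% (Ctrl 95.7% to 104%). Adipocyte genes were at 21.5% to 49.8% and 25.7% to 48.6% (Ctrl 85.1% to 109%). Model 03 was the highest Model library for each of these 5 lists, as for the receptor genes. The M+NSPCC1 libraries did not all rank alike. M+NSPCC1 02 had the highest sum for receptor, leukocyte, fibroblast and adipocyte genes. M+NSPCC1 01, lowest for the receptor sum, was the highest for the pericyte and smooth muscle list and for skeletal muscle. Epidermal keratinocyte genes did not follow: 5 of 6 rose, Krt10 fell by 1.82, and their sum was at 92.5% to 131% of Ctrl in Model. Of blood itself, the platelet gene Pf4 fell by 1.71 and the erythrocyte anion exchanger Slc4a1 rose by 5.86, from 0.297 ± 0.220 to 18.0 ± 4.67 CPM (SD, n = 4 each). The part of these cell types in the change of the receptor genes was not tested. Scaled on genes outside the hair shaft and skeletal muscle lists, vessel content was 32.2% of Ctrl in Model and 31.8% in M+NSPCC1.

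Among 7543 genes at a mean level of 1 CPM or more, those whose deviations from the group means were most like each receptor's over the 12 libraries were, first by Pearson's r, Rasgrf2 for Kdr (0.98), Hspa12b for Tek (0.96), Sync for Tie1 (0.98), Prune2 for Emcn (0.98), Suox for Robo4 (0.89) and Mbnl1 for Tmem204 (0.98). Hspa12b and Fgd5, which is next for Tie1 at 0.98, are known from endothelium, and Sync is a muscle intermediate filament protein. Cd47 was among the 5 most alike for Tie1 (0.97) and Emcn (0.98). These values describe libraries that share depth and tissue composition.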

How the data were processed

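The labels name 12 mouse skin samples of total RNA extracted with TRIzol, made into libraries with an mRNA kit. Per the submitters' processing notes the tools were HISAT2 2.2.1, RSEM 1.3.1 and DESeq2 1.34.0 with build mm10, in roles not given. The authors deposited estimated counts and FPKM per row, 10720 rows of 7902 genes, and no source used here gives the rule for choosing rows. Estimated counts were summed by gene ID, rounded and fitted in edgeR 4.0.16 (R 4.3.3; TMM, filterByExpr, quasi-likelihood, 12 libraries, 1 coefficient per group, no covariate), with Benjamini-Hochberg adjusted p under 0.05. Limma 3.58.1 on log2(FPKM + 1) or + 0.1 and DESeq2 1.42.0 were alternatives, as were other scalings, filters and libraries left out. Steps were run on simulated counts with 200 changed genes. That is a far smaller share than the 90.5% of tested genes called in Model against Ctrl, so the simulation does not cover such a setting.

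The members and lists were chosen with earlier results of these data known. Named genes were the members, each list's tested genes as needed, at most 4 of the lists other than the endothelial and partner lists, chosen by mean CPM, and the 5 genes most like each member. Krt10, Pf4 and Slc4a1 follow this rule. Ratios between members, promoter letters and fits of single rows were added after values had been seen. Relative depth ran from 0.967 to 1.03. No 2 libraries of the same group were alike within sampling noise, and libraries of different groups were not compared in that way. Floors for groups with no count cover counting error only, while the intervals of fold changes come from edgeR and include the spread between libraries. Coordinates and promoters are RefSeq's on GRCm38.p6, and exons are GENCODE M21's.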

Additional observations from a re-analysis of the deposited data

Results flagged for a closer look

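Robo4 in Ctrl 02 stood apart from its group: 16.8 CPM against 8.59 to 9.62 in the other 3 Ctrl libraries. The gap was 0.874 of the group's range, over the critical value of 0.829 for 4 samples. Of 21 groups checked (each receptor gene and the summed content in each group) this was the 1 case, and chance gives about 1 in 20. Without Ctrl 02 Robo4 was still called lower in Model (-1.05) and in M+NSPCC1 (-1.36).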

How the results depend on the processing

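All 6 receptor genes stayed called lower than Ctrl under every alternative run, in Model between -2.23 (Tek) and -0.57 (Robo4 on log2(FPKM + 1), where low genes are understated), with a largest adjusted p of 0.00755 (edgeR, limma or DESeq2, Benjamini-Hochberg), and with each library left out (-2.56 to -0.81).

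M+NSPCC1 against Model lies near 0 for Kdr, Tek, Tie1 and Emcn, and its sign depended on the setting, with none passing. Kdr was 0.0076 with DESeq2's size factors, 0.044 with whole-library depth, 0.0058 with scaling outside hair shaft and muscle, 0.0074 with DESeq2, 0.0002983 with only the 8 libraries, 0.0503 with limma on log2(FPKM + 1), with or without a filter, and 0.0634 with + 0.1. Emcn was 0.0015 with whole-library depth, 0.10 with limma on log2(FPKM + 1), with or without a filter, and 0.13 with + 0.1. Tie1 was 0.0118 with + 0.1, and Tek was -0.0244 in its second row, a setting chosen after seeing the data. With 1 library left out the ranges were -0.11 to 0.22 for Kdr, -0.22 to 0.49 for Tek, -0.33 to 0.16 for Tie1 and -0.23 to 0.34 for Emcn. Vessel content in M+NSPCC1 was 27.7% of Ctrl with DESeq2's size factors, 35.9% with whole-library depth and 39.7% with FPKM; in Model 28.1% to 38.5%, and 25.4% to 35.4% with a library left out (chosen after seeing the data). The cause was not tested.

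Same-numbered samples did not deviate together (r from -0.16 to 0.12, median 0.02), and differently numbered ones had r from -0.15 to 0.19. The labels do not say whether the numbers pair samples, and low correlations cannot exclude it. With the replicate block Kdr was 0.0116 and Emcn 0.0413 in M+NSPCC1 against Model, and all 6 genes stayed lower than Ctrl. Other endothelial markers called lower in Model numbered 26 to 28 across the alternatives.

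Limits are that the tables hold part of the transcriptome by a rule not stated, 4 libraries a group, estimated counts divided between Tek rows, and few counts for Robo4.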
